A study of Mus musculus with 12 samples.

Results

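Fatty acid oxidation and ketogenesis were followed through 45 genes in mouse liver. They were taken from a fixed list of symbols that covers the nuclear receptor of the programme, fatty acid uptake, the carnitine shuttle, mitochondrial and peroxisomal beta-oxidation, omega-oxidation, ketone body steps, acyl-CoA thioesterases and 3 further genes of fuel choice. All 45 were found among the 46078 Ensembl genes of the count table, and all 45 passed the filter on low counts, so none is missing from the tests. Together they held 1.53% of all counted reads.

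The livers came from C57BL/6 mice (C57BL/6J in the study's methods), 21 weeks old, made obese by a high fat diet, and 4 livers were sequenced in each of 3 groups. VSG mice had a vertical sleeve gastrectomy, an operation that removes most of the stomach. Sham-WM mice had a sham operation and were then fed less, so that their weight matched that of the VSG mice, and Sham-Ad lib mice had the sham operation and ate without restriction. All 3 groups thus shared the diet before surgery, an operation and a short fast before the livers were taken, and all mice were male. The comparison of VSG with Sham-WM asks what differs after equal weight loss, and the other comparisons set each kind of weight loss against continued obesity. The paper reports that VSG mice ate more in total than Sham-WM mice. Operation and food intake therefore cannot be told apart between VSG and Sham-WM.

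The libraries held 15122520 to 19384076 counted reads, and the lowest Spearman correlation between livers of a group was 0.963, in VSG. Summed genes of other cell types moved with the operation: 6 Kupffer cell genes reached 389 to 1118 CPM (read counts scaled to library size) in VSG livers, against 113.5 to 376 in Sham-Ad lib and 104.2 to 183 in Sham-WM. The 6 neutrophil genes reached 21.2 to 714 CPM in VSG, 0.379 to 13.3 in Sham-Ad lib and 1.18 to 2.29 in Sham-WM, and 8 acute phase genes 6290 to 55042, 3617 to 23011 and 2945 to 4601 CPM. The 7 hepatocyte genes, albumin among them, were high in every liver, at 84596 to 129159 CPM in VSG, 108179 to 129920 in Sham-Ad lib and 127202 to 155037 in Sham-WM. Of the tested marker genes, 6 of 6 for Kupffer cells, 5 of 5 for neutrophils and 8 of 8 for the acute phase were called higher in VSG than in Sham-WM, and 2 of 7 for hepatocytes lower. The 5 B and plasma cell genes (54.0 to 201 CPM in VSG, at most 32.5 elsewhere) and the 5 T and NK cell genes (3.70 to 8.13 against at most 3.52) moved likewise, while the 5 adipocyte genes reached 40.2 CPM in Sham-Ad lib and at most 5.42 after weight loss. The part of these shifts in the results below was not tested, and in whole liver fewer hepatocytes and less RNA per hepatocyte cannot be told apart. Livers were grouped by the animal number that sample titles share with library names. Another label field pairs titles and libraries differently. Grouped that way no member passed the test in any comparison, and 0 of all 13054 genes tested did. Library index numbers ran in an unbroken block per group, and a batch along those numbers and the treatment cannot be told apart.

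Fatty acids enter the hepatocyte with the help of transport proteins, are bound by a carrier and joined to coenzyme A. Long chains cross into mitochondria as carnitine esters and are shortened there by repeated cycles of dehydrogenation, hydration, dehydrogenation and thiolysis, while very long and branched chains are first shortened in peroxisomes and part of the pool is oxidised at its far end by cytochrome P450 enzymes of the Cyp4a family. The acetyl-CoA that results is made into ketone bodies when glucose is scarce. PPAR alpha, encoded by Ppara, binds fatty acids as a nuclear receptor and turns on many of these genes in fasting, as a dimer with RXR on a direct repeat of the half-site AGGTCA.

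The stretches before the starts of 7 members are shown. Acot1, Acot2 and Acot4 lie in a cluster and were all called lower in VSG than in Sham-WM. The paired genes Acaa1a and Acaa1b moved in opposite directions in that comparison. Pdk4 differed most firmly between the groups, and Fabp1 was the only member with a full repeat. The stretches come from RefSeq on GRCm38.p6 and run 5′ to 3′ on the strand of the gene. They were limited to bases outside annotated exons, with motif matches in capitals.
Fabp1, chr6:71199677-71199826, plus strand: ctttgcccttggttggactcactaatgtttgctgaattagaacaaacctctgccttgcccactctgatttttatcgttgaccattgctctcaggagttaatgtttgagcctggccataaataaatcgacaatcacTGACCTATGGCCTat
Acaa1a, chr9:119341160-119341293, plus strand: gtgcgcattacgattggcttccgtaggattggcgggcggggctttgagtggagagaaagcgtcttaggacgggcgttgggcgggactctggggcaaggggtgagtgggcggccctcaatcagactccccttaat
Acaa1b, chr9:119157094-119157243, minus strand: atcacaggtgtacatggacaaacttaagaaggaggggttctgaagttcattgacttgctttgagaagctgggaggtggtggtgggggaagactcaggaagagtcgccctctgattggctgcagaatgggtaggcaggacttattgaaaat
Acot1, chr12:84009340-84009489, plus strand: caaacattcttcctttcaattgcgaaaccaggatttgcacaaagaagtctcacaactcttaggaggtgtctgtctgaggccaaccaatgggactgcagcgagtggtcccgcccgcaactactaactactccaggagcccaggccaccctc
Acot2, chr12:83987711-83987860, plus strand: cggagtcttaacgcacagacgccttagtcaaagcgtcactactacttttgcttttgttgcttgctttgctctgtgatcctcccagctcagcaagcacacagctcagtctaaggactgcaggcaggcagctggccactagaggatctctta
Acot4, chr12:84038229-84038378, plus strand: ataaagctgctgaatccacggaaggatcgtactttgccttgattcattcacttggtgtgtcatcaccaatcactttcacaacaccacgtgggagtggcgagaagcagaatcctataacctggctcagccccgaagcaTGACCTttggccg
Pdk4, chr6:5496310-5496459, minus strand: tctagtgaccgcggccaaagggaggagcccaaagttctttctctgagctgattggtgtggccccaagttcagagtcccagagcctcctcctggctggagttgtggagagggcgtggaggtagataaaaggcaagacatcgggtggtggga
Both strands were searched from 250 bases before to 50 bases after each start for AGGTCA and for the looser repeat AGGNCANAGGNCA, which can hold the half-site. Of the 45 members 35 had a window, and 8 of these held AGGTCA (Slc27a2, Fabp1, Cpt1a, Acadm, Acadvl, Acot3, Acot4 and Acot12). Some genes have several windows. Counted by window, 9 of the 39 windows of members held it, where 16.3% of all 32851 windows did. The same Acot3 site is counted again there in an overlapping window. The repeat was found in 1 of the 39 windows, that of Fabp1, and in 0.381% of all windows. In Fabp1 it lies on the opposite strand, reads TGACCTATGGCCT on the strand of the gene and starts 67 bases before the RefSeq start.

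Levels can be compared between genes only per length. In CPM per kilobase of exon, Fabp1, the liver fatty acid binding protein, stood highest in Sham-Ad lib livers at 7207 ± 1717 (SD, n = 4). Acaa2, the mitochondrial thiolase, followed at 620 ± 54.1, then the very long chain acyl-CoA synthetase Slc27a2 at 419 ± 72.4 and the bile acid ligase Slc27a5 at 377 ± 37.0. The order of Slc27a2 and Slc27a5 is within their spread. At the low end stood Slc27a1 at 1.35 ± 0.226 and Pdk4 at 1.02 ± 0.223, which also lie within their spread of each other.

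**Figure D1:**
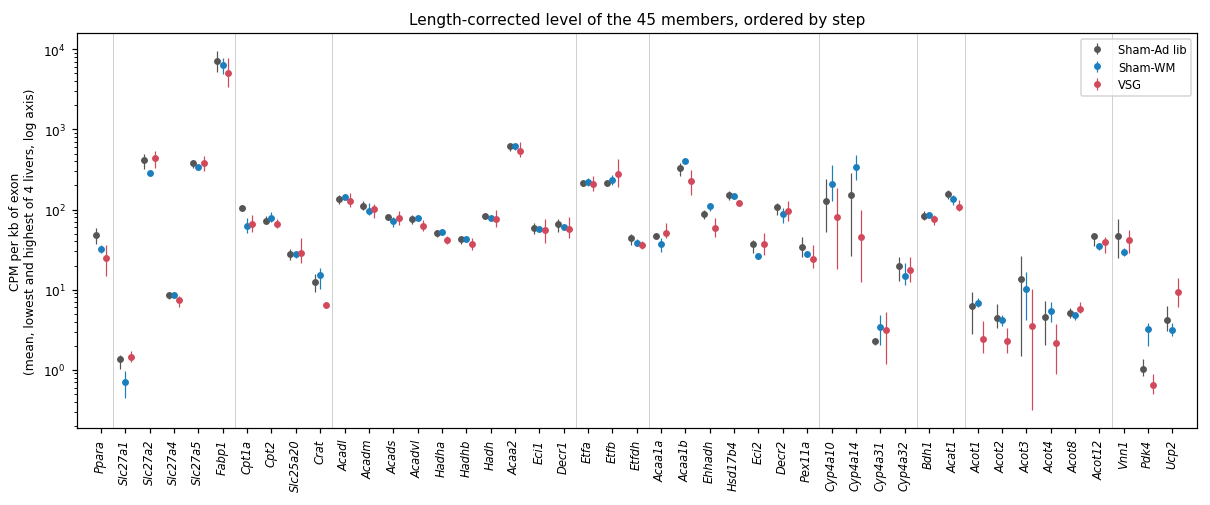
CPM per kilobase of exon for the 45 members on a log axis, ordered by step, with points for the mean of 4 livers and lines from the lowest to the highest liver. Fabp1 stands highest in every group, and Pdk4 and Slc27a1 lie lowest in Sham-Ad lib and in VSG, while in Sham-WM Slc27a1 is lowest and Ucp2 and Pdk4 follow.

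In VSG against Sham-WM, 14 of the 45 members passed an adjusted p of 0.05 (edgeR quasi-likelihood test, Benjamini-Hochberg over 13054 genes), which is the test meant wherever no other is named. Of these, 10 were lower in VSG, which is 22.2% of the members where 11.9% of all genes were called lower, and 4 were higher, which is 8.89% where 15.0% of all genes were called higher. The lower genes were Crat, Acadvl, Hadha, Acaa1b, Ehhadh, Cyp4a14, Acot1, Acot2, Acot4 and Pdk4, and the higher ones Slc27a1, Slc27a2, Acaa1a and Ucp2. The groups did not overlap for 10 members lower in VSG and 4 higher, where 11.9% and 14.3% of all genes did not overlap in those directions. The median log2 fold change of the members was -0.16 against 0.03 over all genes.

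In Sham-WM against Sham-Ad lib, 1 member was called higher, Pdk4, where 3.53% of all genes were called higher, and 2 were called lower, Slc27a1 and Cpt1a, where 3.45% of all genes were. Those are 2.22% and 4.44% of the members, near the shares over all genes. The groups did not overlap for 2 members higher in Sham-WM (Acaa1b and Pdk4) and for 6 lower (Ppara, Slc27a1, Slc27a2, Cpt1a, Acaa1a and Eci2), against 9.17% and 8.40% of all genes. The median of the members was -0.07 and that of all genes 0.00.

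In VSG against Sham-Ad lib, 1 member was called lower, Crat, and 0 were called higher, where 0.283% of all genes were called lower and 0.467% higher. At an unadjusted p under 0.05, 17 members were lower and 1 was higher by edgeR, where 9.81% of all genes were lower and 14.3% higher. DESeq2 called 10 members lower and 1 higher, where it called 3.64% of all genes lower and 5.37% higher. The groups did not overlap for 5 members lower in VSG (Ppara, Cpt1a, Crat, Hsd17b4 and Acat1) and for 0 higher, where 4.34% and 4.87% of all genes did not overlap. The estimate was below 0 for 35 of the 45 members, with a median of -0.20 against 0.03 over all genes. Comparisons that share a group of livers are not independent of each other.

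**Figure D2:**
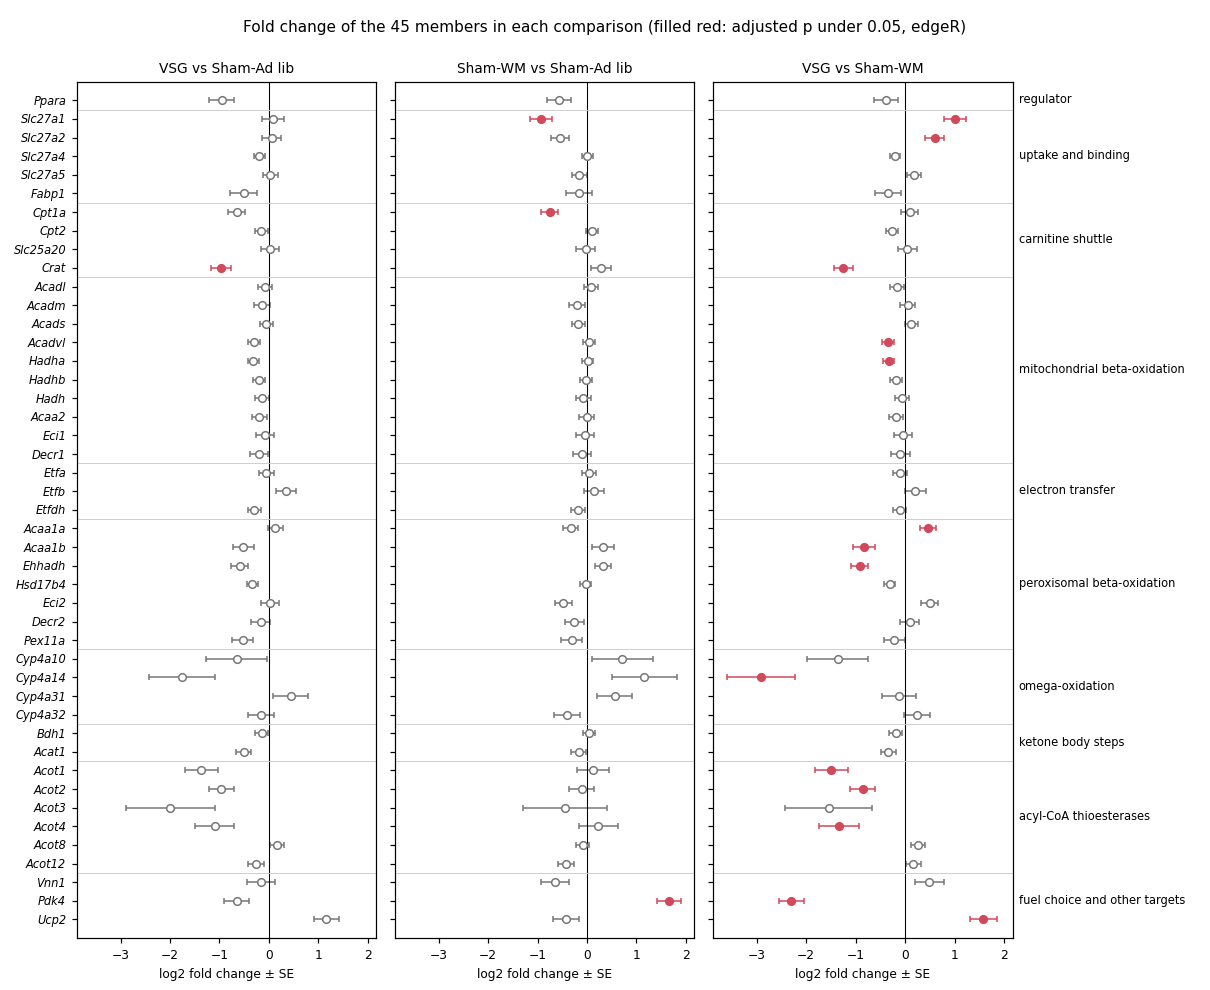
Log2 fold change with its standard error for the 45 members in the 3 comparisons, grouped by step, with filled red points for an adjusted p under 0.05. Of the filled points 1 lies in VSG vs Sham-Ad lib, 3 in Sham-WM vs Sham-Ad lib and 14 in VSG vs Sham-WM.

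Values in single livers are given below as CPM scaled by TMM factors, in the order 3F, 4F, 6F and 10F for Sham-Ad lib, 2F, 9F, 15F and 16F for Sham-WM, and 1F, 8F, 11F and 18F for VSG. Liver 4F stood nearest to VSG in the Kupffer cell genes of the Sham-Ad lib group, and liver 18F had the lowest immune and acute phase levels of the VSG group, so counts are also given without these 2 livers.

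Ppara (ENSMUSG00000022383, chr15:85734983-85802819 on mm10), the receptor that controls much of this programme, was highest in obese livers. It stood at 209, 161, 224 and 142 CPM in Sham-Ad lib, at 108.8, 138, 134 and 116 in Sham-WM, and at 69.3, 140, 57.4 and 111.8 in VSG. Every liver of both weight loss groups was below every Sham-Ad lib liver, and the VSG livers overlapped those of Sham-WM. The log2 fold change was -0.96 ± 0.24 (SE) for VSG against Sham-Ad lib with an adjusted p of 0.0635, and -0.57 ± 0.24 for Sham-WM with an adjusted p of 0.193. Neither passed the threshold, although DESeq2 gave an adjusted p of 0.00557 for the former.

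Of the 5 uptake and binding genes, 1 was called lower in Sham-WM than in Sham-Ad lib, 2 were called higher in VSG than in Sham-WM, and 3 passed in no comparison. Slc27a1, a plasma membrane fatty acid transport protein with little expression in liver, was at 8.76, 6.01, 7.90 and 8.85 CPM in Sham-Ad lib. It was at 2.60, 4.86, 3.42 and 5.68 CPM in Sham-WM and at 7.29, 7.81, 10.1 and 8.25 in VSG. All 4 Sham-WM livers were below all others, with a log2 fold change of -0.93 ± 0.23 against Sham-Ad lib (adjusted p = 0.0267) and of 1.01 ± 0.23 for VSG against Sham-WM (adjusted p = 0.00727). Slc27a2, which activates very long chain fatty acids and bile acids, was at 1613, 1201, 1622 and 1854 CPM in Sham-Ad lib, 1007, 1160, 1017 and 1131 in Sham-WM and 1246, 1289, 1969 and 2045 in VSG. It too was lower in each Sham-WM liver than in any other liver, and VSG exceeded Sham-WM by 0.60 ± 0.19 on the log2 scale (adjusted p = 0.0326). The difference between Sham-WM and Sham-Ad lib, -0.54 ± 0.19, did not pass by edgeR (adjusted p = 0.105) and passed by DESeq2 (adjusted p = 0.0327). Slc27a4 was flat, at 38.8, 36.2, 40.8 and 34.0 CPM in Sham-Ad lib, 39.6, 36.2, 39.1 and 36.0 in Sham-WM and 36.4, 33.3, 26.8 and 34.2 in VSG, with no adjusted p under 0.167. Slc27a5 and Fabp1 passed in no comparison, with group means of 825 to 936 CPM and 2799 to 3985 CPM. Fabp1, whose sequence above holds the repeat, varied widely within VSG, from 1896 CPM in 8F to 4263 in 11F.

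In the carnitine shuttle, Cpt1a was called lower in Sham-WM and Crat in VSG, and 2 of the 4 genes passed in no comparison. Cpt1a (chr19:3322334-3385733), which joins long chains to carnitine at the outer mitochondrial membrane and sets the rate of their entry, was at 877, 731, 866 and 740 CPM in Sham-Ad lib. It was at 492, 603, 393 and 419 CPM in Sham-WM and at 404, 656, 454 and 527 in VSG. Both weight loss groups lay below Sham-Ad lib without overlap, and they overlapped each other. The log2 fold change was -0.75 ± 0.17 in Sham-WM (adjusted p = 0.0205) and -0.65 ± 0.17 in VSG (adjusted p = 0.0655), and the difference between the 2 treatments was 0.10 ± 0.17 (adjusted p = 0.699).

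Crat (chr2:30400471-30415813), carnitine acetyltransferase, which passes acetyl groups between coenzyme A and carnitine, was lower in VSG than in either other group. It stood at 85.4, 57.8, 73.4 and 50.1 CPM in Sham-Ad lib, 55.5, 69.2, 98.7 and 101 in Sham-WM, and 33.3, 36.1, 34.7 and 32.7 in VSG. The 4 VSG livers lay close together and below every other liver. The log2 fold change was -0.96 ± 0.20 against Sham-Ad lib (adjusted p = 0.0469), a call that held in 3 of 12 fits that left out 1 library. In these 12 fits the Crat estimate ran from -1.10 to -0.82. The genes called in that comparison, 98 with all libraries, ran from 0 to 1089. Against Sham-WM the log2 fold change of Crat was -1.25 ± 0.20 (adjusted p = 0.00144), a call that held in all 12. Crat overlaps Dolpp1 on the opposite strand, and the strand setting of the counting is not given in the sources used here. Cpt2, the inner membrane partner of Cpt1a, was at 157 to 199 CPM in Sham-Ad lib, 168 to 222 in Sham-WM and 142 to 180 in VSG, and Slc25a20, the carnitine carrier between them, had means of 137, 135 and 139 CPM. Neither passed a test.

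**Figure D3:**
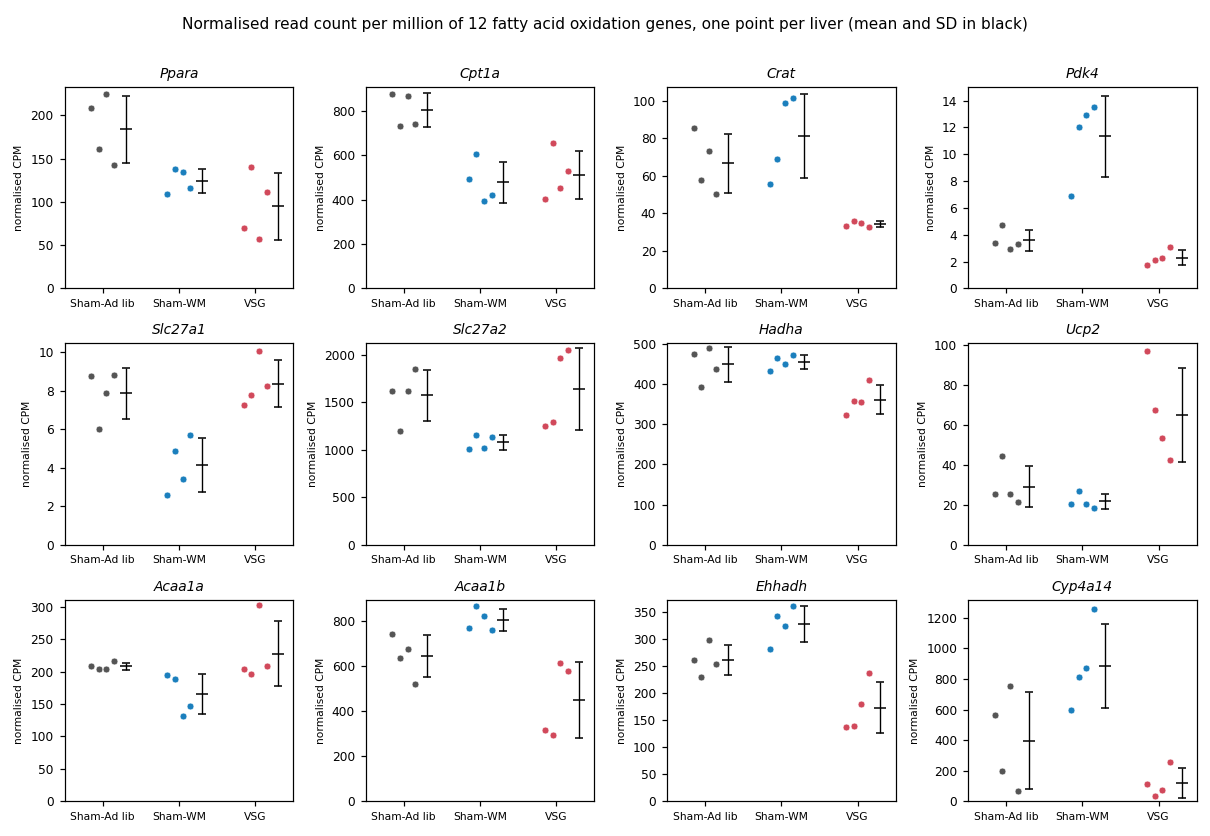
CPM of 12 members with a point per liver and the mean and SD in black. Crat, Ehhadh and Cyp4a14 are lower in each VSG liver than in any Sham-WM liver, Pdk4 is higher in each Sham-WM liver than in any other, and Ppara and Cpt1a are highest in Sham-Ad lib.

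Of the 10 genes of the mitochondrial cycle, 2 were called lower in VSG than in Sham-WM and 8 passed in no comparison. Against Sham-Ad lib 0 passed by edgeR in either treatment, 2 were lower in VSG and 0 changed in Sham-WM at an unadjusted p under 0.05, and DESeq2 called 1, Hadha, lower in VSG. Hadha, the alpha subunit of the trifunctional protein that carries out the last steps for long chains, was at 476, 393, 490 and 436 CPM in Sham-Ad lib, 431, 464, 450 and 472 in Sham-WM and 323, 357, 356 and 409 in VSG. Every VSG liver lay below every Sham-WM liver, by -0.33 ± 0.11 on the log2 scale (adjusted p = 0.0428). Acadvl, the dehydrogenase that opens the cycle for very long chains, was at 219, 195, 230 and 177 CPM in Sham-Ad lib, 210, 223, 220 and 197 in Sham-WM and 147, 160, 159 and 200 in VSG, with a difference of -0.35 ± 0.12 (adjusted p = 0.0455). Here VSG liver 18F reached the Sham-WM range, and Dvl2 overlaps the gene on the opposite strand. Both calls are small and were each kept in 3 of 12 fits that left out 1 library.

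Hadhb, the beta subunit encoded head to head with Hadha, was at 305, 247, 305 and 275 CPM in Sham-Ad lib, 277, 292, 257 and 294 in Sham-WM and 232, 206, 251 and 294 in VSG, and its difference of -0.19 ± 0.12 between VSG and Sham-WM did not pass (adjusted p = 0.277). The dehydrogenases Acadl, Acadm and Acads for long, medium and short chains, the hydroxyacyl dehydrogenase Hadh, the thiolase Acaa2, and Eci1 and Decr1, which handle double bonds, passed in no comparison. Their estimates ran from -0.20 to 0.13 on the log2 scale over the 3 comparisons. The electron transfer proteins that take electrons from the dehydrogenases did not pass either. Etfa was at 361 to 422 CPM in Sham-Ad lib, 364 to 453 in Sham-WM and 316 to 483 in VSG. Etfb was at 235 to 263, 239 to 312 and 219 to 494 CPM, and Etfdh at 267 to 376, 260 to 326 and 245 to 305 CPM. The highest Etfb value, 494 CPM, was that of VSG liver 11F, the library with the fewest counts.

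Of the 7 peroxisomal genes, 2 were called lower and 1 higher in VSG than in Sham-WM. Ehhadh (chr16:21761287-21787807), the bifunctional enzyme that hydrates and dehydrogenates the chain in peroxisomes, was at 261, 230, 298 and 253 CPM in Sham-Ad lib. It was at 282, 342, 324 and 361 CPM in Sham-WM and at 137, 140, 179 and 237 in VSG. The VSG livers lay below all Sham-WM livers, with a log2 fold change of -0.92 ± 0.17 (adjusted p = 0.00268) that passed in all 12 fits that left out 1 library. Against Sham-Ad lib the change was -0.59 ± 0.17 (adjusted p = 0.0748).

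The paired thiolase genes Acaa1a and Acaa1b, which carry out the last cut in peroxisomes, moved in opposite directions between VSG and Sham-WM. Acaa1b was at 740, 637, 676 and 518 CPM in Sham-Ad lib, 769, 864, 820 and 758 in Sham-WM and 315, 296, 613 and 576 in VSG. Each Sham-WM liver exceeded every other liver, and VSG was lower than Sham-WM by -0.84 ± 0.22 on the log2 scale (adjusted p = 0.0163). Acaa1a was at 209, 204, 203 and 216 CPM in Sham-Ad lib, 195, 188, 132 and 147 in Sham-WM and 204, 196, 302 and 208 in VSG. Here the Sham-WM livers were the lowest, and VSG was higher by 0.46 ± 0.16 (adjusted p = 0.0461). That call held in 4 of 12 fits that left out 1 library, and without VSG liver 11F, at 302 CPM, the estimate was 0.30 with an adjusted p of 0.119. Myd88 overlaps Acaa1a on the opposite strand, as Dolpp1 does Crat. The genes lie on opposite strands of chromosome 9, and letter for letter they share 19.3% of the 100 base windows of Acaa1b transcripts and 7.21% of those of Acaa1a, so reads from the shared parts may have been assigned to either. Neither of the stretches shown above holds AGGTCA.

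Hsd17b4, the second bifunctional enzyme, averaged 407 CPM in VSG, 505 in Sham-WM and 515 in Sham-Ad lib and missed the threshold against Sham-WM by edgeR (log2 fold change -0.31 ± 0.11, adjusted p = 0.0561), while DESeq2 called it lower in VSG against Sham-WM and against Sham-Ad lib (adjusted p = 0.00763 and 0.0102). Eci2, an enoyl-CoA isomerase, had means of 203, 146 and 206 CPM and missed it in the other direction by edgeR (0.50 ± 0.18, adjusted p = 0.0502) but not by DESeq2 (adjusted p = 0.0405). Decr2, a reductase for unsaturated chains, and Pex11a, which acts in peroxisome division, passed in no comparison, with estimates from -0.53 to 0.09.

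Of the 4 omega-oxidation genes 1 was called, lower in VSG than in Sham-WM, and its fold change was the largest of all members in that comparison. Cyp4a14 (chr4:115486200-115496142), a fatty acid hydroxylase and classical PPAR alpha target, was at 563, 199, 752 and 67.8 CPM in Sham-Ad lib, 600, 814, 869 and 1257 in Sham-WM and 111.4, 32.3, 72.4 and 254 in VSG. The Sham-WM and VSG livers did not overlap, with a log2 fold change of -2.91 ± 0.70 (adjusted p = 0.00972). The Sham-Ad lib livers, from 67.8 to 752 CPM, covered part of both ranges, and neither comparison with them passed (adjusted p = 0.140 and 0.335). Its neighbour Cyp4a10 was ordered likewise, at 336, 127, 503 and 110.7 CPM in Sham-Ad lib, 272, 370, 372 and 751 in Sham-WM and 136, 37.7, 120 and 392 in VSG, but overlapped in all comparisons (VSG against Sham-WM -1.37 ± 0.62, adjusted p = 0.118). Cyp4a31 was low, at 5.04 to 6.21 CPM in Sham-Ad lib, 5.04 to 12.1 in Sham-WM and 2.96 to 13.0 in VSG, and Cyp4a32 had means of 30.2, 22.7 and 27.0 CPM. Neither passed, and Cyp4a10, Cyp4a31 and Cyp4a32 share 7.33% to 18.2% of their windows with each other while Cyp4a14 shares none.

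Of the ketone body genes, neither passed by edgeR. Bdh1, which interconverts acetoacetate and beta-hydroxybutyrate, was at 373, 284, 354 and 286 CPM in Sham-Ad lib, 349, 362, 317 and 311 in Sham-WM and 294, 252, 296 and 331 in VSG. Acat1, the mitochondrial acetoacetyl-CoA thiolase, was at 663, 508, 646 and 506 CPM in Sham-Ad lib, 554, 575, 424 and 512 in Sham-WM and 356, 366, 490 and 424 in VSG. The VSG livers were all below the Sham-Ad lib livers for Acat1, with a log2 fold change of -0.51 ± 0.15 and an adjusted p of 0.0831 by edgeR, while DESeq2 called it lower (adjusted p = 0.00963).

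The acyl-CoA thioesterases, which release free fatty acids from coenzyme A, fell in VSG against Sham-WM for 3 of the 6 genes. Acot1, the cytosolic enzyme, was at 29.0, 10.9, 37.1 and 21.3 CPM in Sham-Ad lib, 29.0, 30.9, 23.9 and 23.6 in Sham-WM and 7.71, 6.28, 16.0 and 8.48 in VSG. Acot2, the mitochondrial enzyme next to it on chromosome 12, was at 9.15, 8.37, 14.6 and 7.22 CPM in Sham-Ad lib, 8.61, 9.52, 7.65 and 10.7 in Sham-WM and 4.00, 5.57, 7.23 and 3.53 in VSG. Acot4, the peroxisomal enzyme of the same cluster, was at 35.0, 13.5, 48.7 and 26.0 CPM in Sham-Ad lib, 26.1, 30.2, 46.3 and 41.9 in Sham-WM and 5.97, 14.6, 24.6 and 12.6 in VSG. Each gene was lower in every VSG liver than in any Sham-WM liver, and Sham-Ad lib liver 4F stood low in Acot1 and Acot4, inside the VSG range.

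Against Sham-WM the log2 fold changes were -1.49 ± 0.34 for Acot1 (adjusted p = 0.00740), -0.85 ± 0.25 for Acot2 (adjusted p = 0.0266) and -1.33 ± 0.40 for Acot4 (adjusted p = 0.0284). Against Sham-Ad lib they were -1.36 ± 0.34, -0.96 ± 0.25 and -1.10 ± 0.40, with adjusted p of 0.0585, 0.0655 and 0.127. Acot3, the fourth gene of the cluster, ranged from 5.10 to 91.0 CPM in Sham-Ad lib, 14.5 to 56.6 in Sham-WM and 1.08 to 35.4 in VSG and passed in no comparison (VSG against Sham-WM -1.54 ± 0.88, adjusted p = 0.208). Acot8 and Acot12, which lie elsewhere, had means of 9.54 to 11.4 CPM and 114.2 to 153 CPM and did not pass. Acot1, Acot2 and Acot3 share 12.4%, 17.1% and 13.8% of their windows with other Acot genes, and Acot4 0.336%, so the values of the first 3 may hold reads of a neighbour. In the stretches shown above Acot4 holds AGGTCA on the opposite strand, 13 bases before its start, and Acot1 and Acot2 do not hold it.

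**Figure D4:**
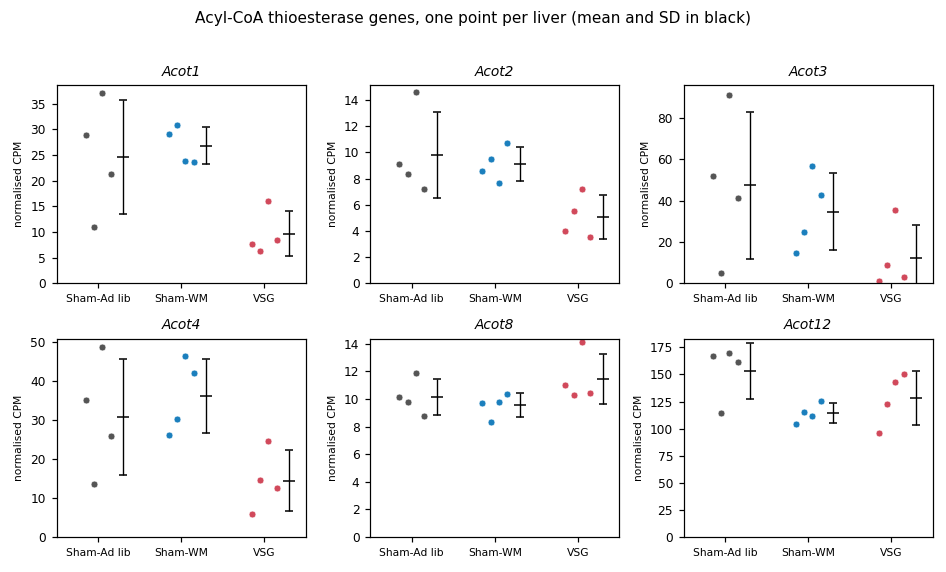
CPM of the 6 acyl-CoA thioesterase genes with a point per liver and the mean and SD in black. Acot1, Acot2 and Acot4 are lower in each VSG liver than in any Sham-WM liver, while Acot8 and Acot12 overlap between VSG and Sham-WM.

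Pdk4 (chr6:5483351-5496309), the kinase that turns off pyruvate dehydrogenase and so spares glucose when fat is burned, had the smallest adjusted p of all members. It was at 3.404, 4.72, 2.92 and 3.33 CPM in Sham-Ad lib, 6.88, 12.03, 13.0 and 13.5 in Sham-WM and 1.73, 2.09, 2.26 and 3.07 in VSG. Every Sham-WM liver was above all others, by a log2 fold change of 1.65 ± 0.24 against Sham-Ad lib (adjusted p = 0.00181), and VSG was lower than Sham-WM by -2.30 ± 0.25 (adjusted p = 0.000148). VSG against Sham-Ad lib gave -0.65 ± 0.26 and did not pass (adjusted p = 0.151).

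Ucp2, a mitochondrial carrier that is also abundant in macrophages, rose in VSG against Sham-WM. It was at 25.3, 44.3, 25.2 and 21.3 CPM in Sham-Ad lib, 20.6, 27.0, 20.6 and 18.5 in Sham-WM and 96.8, 67.3, 53.4 and 42.5 in VSG. The VSG livers exceeded all Sham-WM livers by 1.58 ± 0.26 on the log2 scale (adjusted p = 0.00177), and against Sham-Ad lib the change was 1.16 ± 0.26 (adjusted p = 0.0515). The order of the 4 VSG livers in Ucp2 was that of their summed Kupffer cell genes, which stood at 1118, 581, 549 and 389 CPM. The neutrophil, B and plasma cell, and T and NK cell genes gave the same order, and the acute phase genes did not. Liver 4F, the highest Sham-Ad lib liver for Ucp2, was also the highest of its group in the Kupffer cell genes at 376 CPM. Liver 3F was lowest of that group in them, at 113.5 CPM, but not in Ucp2. In Sham-WM, 9F was highest in Ucp2, with 149 CPM of Kupffer cell genes against 183 in 15F. The part of other cells in the Ucp2 level was not tested. Vnn1, pantetheinase, a PPAR alpha target, was at 130, 78.6, 182 and 60.1 CPM in Sham-Ad lib, 63.4, 65.5, 79.1 and 79.9 in Sham-WM and 135, 69.6, 106.9 and 93.9 in VSG and passed in no comparison.

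Summed over members, VSG livers 1F and 8F were below 11F and 18F in the mitochondrial cycle and the peroxisomal genes. The same held for uptake and binding, electron transfer, the ketone body steps and the thioesterases. Livers 1F and 8F were at 2733 and 2646 CPM for the mitochondrial cycle and at 1477 and 1428 for the peroxisomal genes, while 11F and 18F were at 3777 and 3399 and at 2246 and 2016. Livers 11F and 18F lay in the range of the Sham-Ad lib livers, at 3155 to 3904 and 2028 to 2417 CPM, in the mitochondrial sum and, for 11F, in the peroxisomal sum. Livers 1F and 8F also had the highest neutrophil genes, at 714 and 296 CPM against 107.9 and 21.2 in 11F and 18F. Their hepatocyte genes were the lowest of the group, at 85328 and 84596 CPM against 95025 and 129159. In the Kupffer cell genes 8F, at 581 CPM, stood close to 11F, at 549. The acute phase genes were not divided in this way, at 55042 and 29840 CPM against 47433 and 6290. The part of other cells in the sums of the steps was not tested. The sums of omega-oxidation (274 and 98.5 against 239 and 683 CPM), of the 3 genes of fuel choice (233 and 139 against 163 and 140) and of Ppara alone did not show the split of 1F and 8F from 11F and 18F. Nor did the carnitine shuttle, at 698 to 940 CPM in VSG and 798 to 986 in Sham-WM, both below the 1060 to 1293 of Sham-Ad lib. The largest part of that sum was Cpt1a, with means of 510 CPM in VSG, 477 in Sham-WM and 803 in Sham-Ad lib. Cpt2 and Slc25a20 passed in no comparison, and Crat was lower only in VSG.

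**Figure D5:**
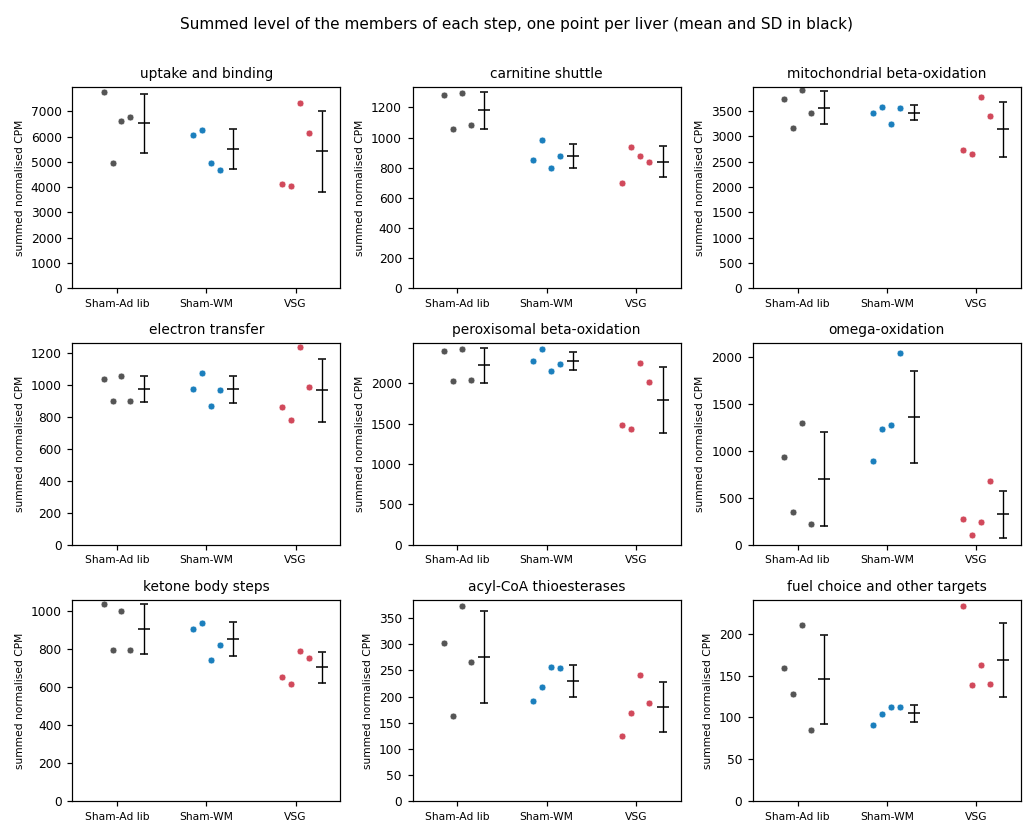
Summed CPM of the members of 9 steps with a point per liver and the mean and SD in black. The carnitine shuttle sum, of which Cpt1a is the largest part, is lower in both weight loss groups than in any Sham-Ad lib liver. The omega-oxidation sum, made up mostly of Cyp4a10 and Cyp4a14, is lower in each VSG liver, at 98.5 to 683 CPM, than in any Sham-WM liver, at 894 to 2042.

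Without livers 4F and 18F, VSG against Sham-WM gave 10 members lower and 2 higher, where 12.5% and 16.2% of all genes were called in those directions, with Slc27a2, Acaa1a and Acot2 no longer called and Cyp4a10 added. VSG against Sham-Ad lib then gave 6 lower and 1 higher, where 3.22% and 7.82% of all genes were called, adding Ppara, Hadha, Ehhadh, Cyp4a14 and Acot1 on the lower side and Ucp2 on the higher. The 2 livers were picked for standing nearest to the other group in immune genes, so leaving them out tends to widen this comparison. The genes called in it went from 98 to 1453, and the added members are no independent support. With 2 factors of unwanted variation estimated from replicates (RUVs) as covariates, only Slc27a1, Slc27a2 and Pdk4 of the 14 calls between VSG and Sham-WM were kept, with Eci2 and Acot12 added, where 1.48% of all genes were called lower and 1.78% higher.

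A wider list of 90 other genes of the pathway, written with earlier results of these data known, had 78 that could be tested. In VSG against Sham-Ad lib none passed by edgeR, where 0.467% of all genes were called higher and 0.283% lower. At an unadjusted p under 0.05, 4 were higher and 21 lower by edgeR, where 14.3% and 9.81% of all genes were. DESeq2 called 1 higher and 16 lower, where it called 5.37% and 3.64% of all genes. In Sham-WM against Sham-Ad lib 5 rose and 3 fell, where 3.53% and 3.45% of all genes did, and by DESeq2 6 were higher and 11 lower, where 5.40% and 5.35% of all genes were. Those that rose were the ketone body and lactate transporter Slc16a1 (log2 fold change 1.02), its relative Slc16a6 (1.20), the peroxisomal lyase Hacl1 (1.15), the nuclear receptor Ppard (1.14) and the hydroxylase Cyp4f14 (0.45). Those that fell were the coactivator Ppargc1b (-1.33), the dehydrogenase Acad12 (-1.01) and the kinase Pdk2 (-0.82).

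In VSG against Sham-WM, 9 of the 78 rose and 17 fell, where 15.0% and 11.9% of all genes did, and by DESeq2 9 were higher and 18 lower, where 13.6% and 11.6% of all genes were. The 5 largest rises were those of Ppargc1b (1.08), the ketone body utilising enzyme Oxct1 (0.91), Acad12 (0.84), the thioesterase Acot6 (0.71) and Pdk2 (0.61). The 5 largest falls were those of the acetoacetate ligase Aacs (-1.95), Hacl1 (-1.54), the sterol pathway synthase Hmgcs1 (-1.14), Pdk1 (-1.13) and Ppard (-1.09). Of these Hmgcs1 (adjusted p = 0.0497) was not called by DESeq2. Of the 8 tested genes of uptake and activation 4 fell, and these, named after their values were seen, were the long chain acyl-CoA synthetases Acsl1 (-0.93), Acsl3 (-1.01), Acsl4 (-0.99) and Acsl5 (-1.07). Acsl1 averaged 820 CPM in VSG, 1557 in Sham-WM and 1444 in Sham-Ad lib (adjusted p = 0.0181 for VSG against Sham-WM).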

How the data were processed

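RNA from whole mouse liver was poly(A) selected and made into directional libraries, 4 per group. The authors aligned reads to mm10 with TopHat2 2.1.1 and deposited whole-number counts per Ensembl gene from featureCounts. The annotation release and the strand setting are not given in the sources used here. Symbols and positions came from GENCODE M21, which matched 45229 of 46078 identifiers. Counts were tested with edgeR 4.0.16 in R 4.3.3 (filterByExpr, TMM factors, quasi-likelihood F test, two-sided) on all 12 libraries with group means and no covariate, and p-values were adjusted over the 13054 genes tested. The test was checked on simulated data with known changes. These were larger than most changes given above and came without a batch along the groups, so the check does not cover smaller changes or such a batch. CPM and values per kilobase used the same scaling, and standard errors were derived from the F statistic. Mice were housed in groups and then singly in the last weeks. Which mice had shared a cage or a surgery day is not given in the sources used here, so p-values measure the spread between these livers.

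The members and gene lists were chosen with earlier results of these data known. Values in every liver are given for Ppara, Cpt1a and, in each step, up to 3 members with the smallest adjusted p in any comparison. Of the other pathway genes those that passed are named, at most 5 per comparison and direction. Alternatives were upper quartile scaling, DESeq2 1.42.0, other filters, only the 2 groups compared, 2 RUVs or RUVr factors written out from their definitions, the other label field, and each library left out. Leaving out livers 4F and 18F together was chosen after seeing the data.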

Additional observations from a re-analysis of the deposited data

Results flagged for a closer look

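In each of 135 sets of 4 livers (45 members in 3 groups), the gap between the outermost liver and its neighbour was set against the range of the group by Dixon's test at its 95% critical value. Chance passes about 1 set in 20, and 3 sets passed here, 2.22% of all. Acaa1a stood at 302 CPM in VSG liver 11F, where the other VSG livers lay between 196 and 208. Acot12 stood at 114.6 CPM in Sham-Ad lib liver 4F, where the others lay between 161 and 169. Decr1 stood at 216 CPM in Sham-WM liver 15F, where the others lay between 239 and 244.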

How the results depend on the processing

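The counts of members called depended on the model, and the cause was not tested. In VSG against Sham-Ad lib, where 1 member was lower and 0 higher, 10 and 1 passed by DESeq2, 6 and 1 with no filter on low counts, 16 and 2 with RUVr factors, and 6 and 1 without livers 4F and 18F. The shares of all genes called lower and higher moved as well, from 0.283% and 0.467% to 3.64% and 5.37%, 0.918% and 1.80%, 10.1% and 13.0%, and 3.22% and 7.82% in that order. There 0 were lower with a floor of 10 counts set for each library, with only the 2 groups compared, with RUVs factors and by the other label field. Of all genes 0%, 0%, 0.0153% and 0% were called lower in that order. Leaving out 1 library gave 0 to 6 members lower and 0 to 1 higher, with 0 to 1089 genes called in both directions together. In Sham-WM against Sham-Ad lib, where 2 were lower, 5 passed with only the 2 groups compared, 6 with RUVs and 7 with RUVr factors, where 3.45% of all genes became 5.41%, 6.49% and 8.02%. Leaving out 1 library gave 0 to 3 lower, with 424 to 1311 genes called in both directions together. In VSG against Sham-WM, where 10 were lower and 4 higher, 1 was lower with RUVs and 16 with RUVr factors (1.48% and 20.2% of all genes). Without livers 4F and 18F 2 were higher, where 16.2% of all genes were. Leaving out 1 library gave 6 to 11 lower and 2 to 5 higher, with 2196 to 3868 genes called in both directions together. The 6 came without Sham-WM liver 16F or VSG liver 1F, and the 2 without Sham-WM liver 15F or 16F or VSG liver 11F. By the other label field 0 members and 0 of all 13054 genes passed in any comparison. There 2 called values changed sign in Sham-WM against Sham-Ad lib, Cpt1a at 0.51 (adjusted p = 0.894) and Pdk4 at -0.56 (adjusted p = 0.913). Of 1701 alternative values for 81 named fold changes, 1540 kept direction or stayed under the threshold, 99 lost and 60 gained a call, and 2 reversed. In the fits that left out 1 library each, Slc27a1, Crat, Acaa1b, Ehhadh, Cyp4a14, Acot1, Pdk4 and Ucp2 passed in all 12 for VSG against Sham-WM, and Pdk4 in all 12 for Sham-WM against Sham-Ad lib. Cpt1a passed in 8 and Slc27a1 in 7 for the latter. For VSG against Sham-WM, Acot2 and Acot4 passed in 8 each and Slc27a2 in 6. No paired analysis was possible because the groups share no replicate numbers. Pdk4, Slc27a1, Cyp4a31 and Acot2 rest on a few CPM, with group means of 38.5 to 216 counts. The part of counting in the spread between their livers was not tested.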
